A study of Mus musculus with 12 samples.

Results

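The genes described here are 9 of the 35907 genes in the tables: the inhibitory receptor genes Pdcd1, Lag3, Tigit, Havcr2, Cd160 and Btla, the ectoenzyme gene Entpd1, and the transcription factor genes Tox and Tox2. They were listed by symbol, and the list was drawn up with earlier results of these data known. RNA was sequenced from mouse spleen T cells in 12 libraries, 3 in each of 4 groups: TCF-1 cKO Post-Tx, WT Post-Tx, TCF-1 cKO Pre-Tx and WT Pre-Tx. TCF-1 cKO donors, labelled TCF-7 cKO, carried Tcf7 flox/flox alleles and a Cre recombinase driven by the Cd4 promoter, which acts in the whole T cell lineage during thymic development, so that CD8 T cells carried the deletion too. WT donors carried intact Tcf7. Donors of both genotypes were young adult mice on the C57BL/6 background, whose cells carry H2Kb. Pre-Tx cells were sorted from the spleens of these donors. For Post-Tx, CD3 T cells were given to lethally irradiated female BALB/c mice. In the study's transplant model, recipients also received T cell-depleted bone marrow from WT C57BL/6 mice, whose cells carry H2Kb too. H2Kb+ donor cells were sorted back from the recipients' spleens at day 7, with CD3, CD4 and CD8 as further sort markers. Host, day and cell state therefore differ together between Post-Tx and Pre-Tx. The sample labels call all libraries CD4 T cells, whereas other descriptions of the study also name CD8 T cells for both sorts. Replicates are numbered as biological replicates, and Pre-Tx cells came from 3 mice of each genotype, but the labels do not tie a library to a mouse or say whether animals were pooled in Post-Tx.

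Inhibitory receptors are surface proteins that appear on T cells after activation and dampen signals from the T cell receptor and its costimulators. PD-1, the product of Pdcd1, binds PD-L1 and PD-L2 and recruits the phosphatase SHP-2. LAG-3 binds MHC class II, TIGIT competes with the activating receptor CD226 for CD155, TIM-3 (Havcr2) binds galectin-9 and CEACAM1, and BTLA and CD160 share the ligand HVEM. CD39, encoded by Entpd1, is an ectoenzyme that degrades extracellular ATP on the way to adenosine. TOX and TOX2 are nuclear proteins with an HMG box, linked to receptor expression and persistence in chronically stimulated T cells. TCF-1 is itself an HMG box factor of naive, memory and follicular helper T cells, and in graft-versus-host disease donor T cells meet host antigen continuously.

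The promoters of Pdcd1, Tigit and Tox2 are shown because these genes were lower together in TCF-1 cKO Post-Tx cells, and that of Cd160 because that gene did not pass the test there and its promoter was the only one of those matched with a match to the TCF motif. The sequences come from RefSeq on GRCm38.p6, with 250 bases before and 50 after a start site, 5′ to 3′ on the gene's strand, and capitals mark motif matches. Promoters of 7 of the 9 genes were matched by symbol, not those of Lag3 and Tox. They lie at chr1:94052504-94052803 (minus strand), chr16:43664135-43664434 (minus strand), chr2:163202877-163203176 (plus strand) and chr3:96814472-96814771 (minus strand). For Tox2 and Cd160 the start site nearest to that of the transcript with the most counts was taken.
Pdcd1: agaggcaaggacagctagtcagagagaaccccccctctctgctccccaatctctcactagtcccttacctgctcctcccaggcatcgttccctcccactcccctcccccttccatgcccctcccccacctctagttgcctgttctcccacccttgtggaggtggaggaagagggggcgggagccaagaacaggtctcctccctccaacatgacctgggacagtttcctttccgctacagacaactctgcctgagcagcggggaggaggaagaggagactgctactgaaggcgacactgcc
Tigit: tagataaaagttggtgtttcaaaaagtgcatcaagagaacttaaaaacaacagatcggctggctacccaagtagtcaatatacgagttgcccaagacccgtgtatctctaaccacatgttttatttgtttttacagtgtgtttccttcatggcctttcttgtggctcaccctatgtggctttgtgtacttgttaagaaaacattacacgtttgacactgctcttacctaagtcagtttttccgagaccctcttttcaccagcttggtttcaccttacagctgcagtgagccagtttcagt
Tox2: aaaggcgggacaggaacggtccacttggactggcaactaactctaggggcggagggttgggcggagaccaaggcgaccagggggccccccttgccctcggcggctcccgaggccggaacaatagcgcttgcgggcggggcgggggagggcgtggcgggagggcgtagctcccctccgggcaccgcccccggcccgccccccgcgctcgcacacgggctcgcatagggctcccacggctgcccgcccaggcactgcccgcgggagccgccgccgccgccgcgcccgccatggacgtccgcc
Cd160: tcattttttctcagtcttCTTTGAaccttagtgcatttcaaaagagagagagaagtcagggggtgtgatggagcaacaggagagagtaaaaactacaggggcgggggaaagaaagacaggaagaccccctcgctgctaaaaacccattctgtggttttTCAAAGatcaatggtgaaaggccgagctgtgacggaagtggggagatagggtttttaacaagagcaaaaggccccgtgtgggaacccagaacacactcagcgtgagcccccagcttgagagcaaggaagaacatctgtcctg
Both strands were searched for CTTTGA, the core of the TCF and LEF site, TGGAAA, the NFAT core, and TGANTCA, the AP-1 site, where N is any base. CTTTGA was found in 1 of the 7 promoters, that of Cd160, with 2 matches whose first bases lie at -232 (gene strand) and -92 (opposite strand) from the start site. No such run of letters lay in the windows of Pdcd1, Tigit or Tox2. TGANTCA was found in 1 of the 7, in Havcr2 at -200, and TGGAAA in 0 of the 7, so that no match overlapped one of another motif. Of all 32851 promoters of this length, 16.0% held CTTTGA, 21.4% TGGAAA and 7.81% TGANTCA. A match is a description of letters and not a bound site.

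Total estimated counts per library ranged from 17103415 to 49486745. Tcf7 stood at 109, 139.9 and 146 CPM (counts per 1000000 counts) in TCF-1 cKO Post-Tx against 145, 171 and 159 CPM in WT Post-Tx, and at 179, 136 and 163 CPM in TCF-1 cKO Pre-Tx against 198, 175 and 112 CPM in WT Pre-Tx. Whole transcripts were counted, which does not show the loss of floxed exons, so genotypes are given as labelled. The 10 T cell markers, among them Cd3e and Trac, summed to 5530 to 5848 CPM in TCF-1 cKO Post-Tx against 7166 to 8829 CPM in WT Post-Tx, and to 1660 to 1853 CPM in TCF-1 cKO Pre-Tx against 2962 to 3475 CPM in WT Pre-Tx. The 10 B cell markers summed to 53.9 to 109 CPM in TCF-1 cKO Post-Tx against 42.0 to 83.5 CPM in WT Post-Tx, but to 9234 to 9927 CPM in TCF-1 cKO Pre-Tx against 7724 to 8860 CPM in WT Pre-Tx. The Pre-Tx libraries thus held more transcripts of the B cell list than of the T cell list, which goes against their label. Transcripts of 1407 olfactory receptor genes, foreign to T cells, summed to 4484 to 12030 CPM in TCF-1 cKO Post-Tx against 1088 to 3136 CPM in WT Post-Tx. Before transplant their order was turned round, with 880 to 1550 CPM in TCF-1 cKO Pre-Tx against 2532 to 7011 CPM in WT Pre-Tx. The 7 NK cell markers summed to 190.3 to 258 CPM in TCF-1 cKO Post-Tx against 303 to 458 CPM in WT Post-Tx, and to 541 to 617 CPM in TCF-1 cKO Pre-Tx against 189 to 273 CPM in WT Pre-Tx. Among these NK cell markers are Gzma and Prf1, which T cells can express too, so their sum need not stem from NK cells. NK cells can express Havcr2, Tigit, Lag3 and Cd160, and the part of these marker sums in the results was not tested.

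At day 7 after transplant, 6 of the 9 genes were lower in TCF-1 cKO cells than in WT cells, and 0 were higher. Of all 19287 genes tested in this comparison, 3.13% were called lower and 3.52% higher, at an adjusted p under 0.05 in edgeR's quasi-likelihood test. The 6 genes were Pdcd1, Lag3, Tigit, Btla, Tox and Tox2. In normalized CPM the groups did not overlap for these and for Havcr2, 7 of 9, against 17.5% of all genes not overlapping in this direction. In TPM the groups of Btla and Havcr2 overlapped. The median log2 fold change of the 9 genes was -1.29, and that of all genes tested was 0.09. Because libraries are bulk samples, fewer cells that express a gene and less RNA per cell cannot be told apart here.

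**Figure D1:**
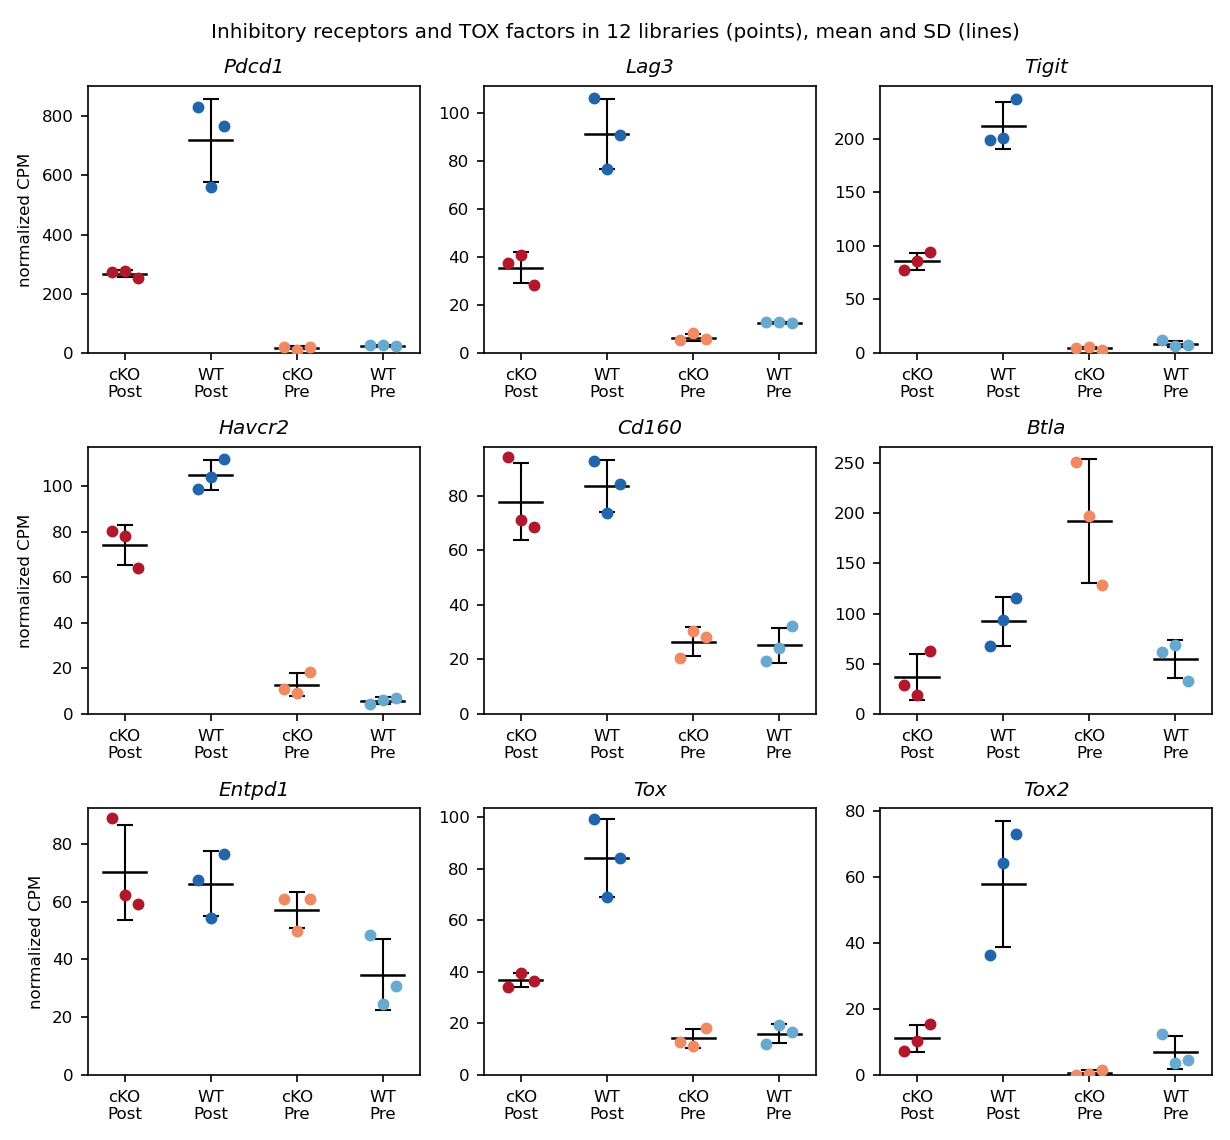
Normalized CPM (linear vertical axis from 0, CPM scaled with TMM factors over the 12 libraries) of the 9 genes in TCF-1 cKO Post-Tx, WT Post-Tx, TCF-1 cKO Pre-Tx and WT Pre-Tx, with 1 point per library and the mean and SD as lines. Pdcd1 lies between 255 and 277 in TCF-1 cKO Post-Tx and between 561 and 831 in WT Post-Tx, while Btla is highest in TCF-1 cKO Pre-Tx.

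PD-1 transcripts were the most abundant of the set by length-scaled level after transplant. Normalized CPM of Pdcd1 were 274, 277 and 255 in TCF-1 cKO Post-Tx against 831, 561 and 766 in WT Post-Tx. The 3 TCF-1 cKO libraries lay close together and all below the lowest WT library. The log2 fold change was -1.42 (SE 0.23, edgeR adjusted p = 0.00884).
Lag3, whose product binds MHC class II, had 37.5, 40.6 and 28.3 normalized CPM in TCF-1 cKO Post-Tx against 106, 76.6 and 90.9 in WT Post-Tx. Again every TCF-1 cKO library was below every WT library. The log2 fold change was -1.36 (SE 0.26, edgeR adjusted p = 0.0175).
Tigit had 77.8, 85.5 and 94.0 normalized CPM in TCF-1 cKO Post-Tx against 199, 201 and 238 in WT Post-Tx, with both groups narrow and well apart. Its log2 fold change was -1.30 (SE 0.22, edgeR adjusted p = 0.011).
Btla, the receptor for HVEM that B cells also carry, had 29.0, 19.2 and 62.9 normalized CPM in TCF-1 cKO Post-Tx against 67.4, 93.7 and 116 in WT Post-Tx. The third TCF-1 cKO library came within reach of the lowest WT library, and the spread in both groups was wide. In TPM the groups overlapped, at 13.9, 10.1 and 33.6 in TCF-1 cKO Post-Tx against 26.1, 40.4 and 41.4 in WT Post-Tx. The log2 fold change was -1.29 (SE 0.35, edgeR adjusted p = 0.041), and this call was lost in 9 of 15 alternatives.

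The pair of TOX factors moved in the same direction as the receptors. Tox had 34.3, 39.7 and 36.6 normalized CPM in TCF-1 cKO Post-Tx against 99.1, 68.9 and 84.0 in WT Post-Tx, a log2 fold change of -1.19 (SE 0.25, edgeR adjusted p = 0.0208). This call was lost in 6 of 15 alternatives, among them limma on log2(TPM + 1) (-0.74, limma adjusted p = 0.086) and the model of all 12 libraries (-1.19, edgeR adjusted p = 0.0575). Tox2, a factor of follicular helper cells, had 7.33, 10.3 and 15.6 normalized CPM in TCF-1 cKO Post-Tx against 36.4, 64.1 and 73.0 in WT Post-Tx. Groups did not overlap for either gene. Tox2 had the largest change of the 9, with a log2 fold change of -2.37 (SE 0.35, edgeR adjusted p = 0.00665), and it ranked 6 by p among the 19287 genes. The Tox2 call was lost in 2 of 15 alternatives, of which 1 was the model of all 12 libraries (-2.39, edgeR adjusted p = 0.064). Tox4, a further TOX family gene, had a log2 fold change of -0.45 (edgeR adjusted p = 0.186), and Tox3 was too low to be tested.

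The remaining 3 genes did not pass the test after transplant. Havcr2 had 80.3, 77.9 and 64.1 normalized CPM in TCF-1 cKO Post-Tx against 98.9, 104 and 112 in WT Post-Tx, and although the groups did not overlap, the log2 fold change of -0.50 (SE 0.23) had an edgeR adjusted p of 0.142. In TPM the groups of Havcr2 overlapped, at 40.3, 42.9 and 35.3 in TCF-1 cKO Post-Tx against 41.3, 49.5 and 42.9 in WT Post-Tx. Cd160, which encodes a receptor held by a lipid anchor, had 94.1, 71.1 and 68.5 normalized CPM in TCF-1 cKO Post-Tx against 92.9, 73.8 and 84.3 in WT Post-Tx. Its log2 fold change was -0.10, with an interval of 1.96 standard errors running from -0.57 to 0.37. Entpd1 had 89.0, 62.2 and 59.0 normalized CPM in TCF-1 cKO Post-Tx against 67.5, 54.2 and 76.6 in WT Post-Tx, a log2 fold change of 0.09 with an interval from -0.40 to 0.59. The groups overlapped for Cd160 and Entpd1 on this scale. In TPM, which is scaled to the library total without TMM factors, Entpd1 stood at 62.9, 51.9 and 46.7 in TCF-1 cKO Post-Tx against 36.3, 39.4 and 34.4 in WT Post-Tx, with no overlap. Reads over the part of Cd160 that overlaps Pdzk1 on the opposite strand, and over the parts of Entpd1 shared with Gm16027 and Gm8783, cannot be assigned with certainty.

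The 6 calls after transplant rested on few libraries. Without TCF-1 cKO Post-Tx replicate 2, the edgeR adjusted p was 0.0799 for Pdcd1 and Tox2, 0.0906 for Tigit, 0.105 for Lag3, 0.139 for Tox and 0.195 for Btla, so that 0 of the 9 were called, and 6 genes were called in all against 1283 with it. The log2 fold changes without it were -1.42 for Pdcd1, -1.46 for Lag3, -1.28 for Tigit, -0.98 for Btla, -1.23 for Tox and -2.30 for Tox2. Without WT Post-Tx replicate 1, Lag3 (0.0595), Btla (0.076) and Tox (0.0898) lost their calls, and 64 genes were called in all. Btla lost its call also without TCF-1 cKO Post-Tx replicate 1 (0.0741) and without WT Post-Tx replicate 3 (0.0737). All 6 genes kept their direction in 15 of 15 alternatives.

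**Figure D2:**
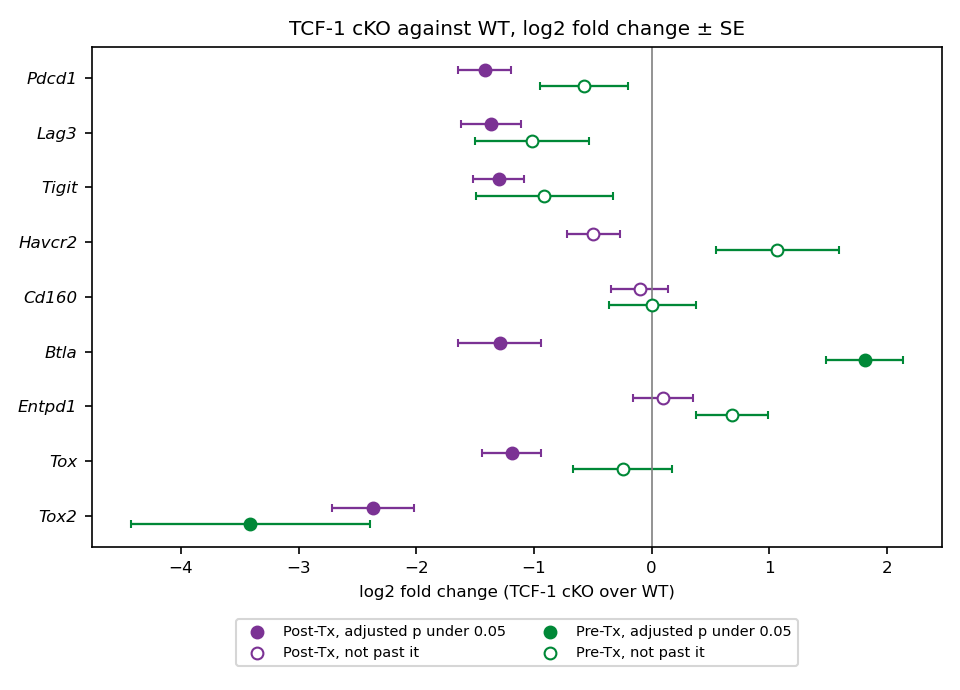
Log2 fold change of TCF-1 cKO over WT (horizontal axis, with bars of 1 SE) of the 9 genes in Post-Tx (purple, upper of each pair) and Pre-Tx (green, lower of each pair), with filled points for an adjusted p under 0.05. The 6 filled Post-Tx points lie between -2.37 and -1.19, and in Pre-Tx only Btla at 1.81 and Tox2 at -3.41 are filled.

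The T cell marker sum was itself lower in TCF-1 cKO, so each gene was also set against it. The share of T cells in a library and the marker RNA per T cell cannot be told apart in this sum. Per 1000 counts of the 10 T cell markers, Pdcd1 had 56.2, 65.6 and 56.2 counts in TCF-1 cKO Post-Tx against 86.6, 86.1 and 82.7 in WT Post-Tx, a log2 difference of -0.52. Tox2 had 1.5, 2.44 and 3.43 in TCF-1 cKO Post-Tx against 3.79, 9.85 and 7.88 in WT Post-Tx, a log2 difference of -1.51. For both genes the groups still did not overlap, although the differences were smaller than on the scale of the whole library. The log2 difference was -0.49 for Lag3 and -0.43 for Tigit, without overlap, and -0.58 for Btla and -0.30 for Tox, with overlap.
On the same scale Entpd1 had 18.3, 14.7 and 13 counts in TCF-1 cKO Post-Tx against 7.04, 8.32 and 8.27 in WT Post-Tx, a log2 difference of 0.95, and Cd160 had 19.3, 16.8 and 15.1 against 9.69, 11.3 and 9.09, a log2 difference of 0.77. These 2 genes were higher per T cell marker count in every TCF-1 cKO library. With 3 libraries against 3, the exact two-sided permutation test cannot go below p = 0.1, which was reached by Pdcd1, Lag3, Tigit, Cd160, Entpd1 and Tox2. The 9 genes at 2 stages made 18 such comparisons, so no adjusted value could pass 0.05. A fit of all genes with libraries scaled to the T cell markers called Pdcd1 (-0.52, edgeR adjusted p = 0.0298) and Tox2 (-1.55, edgeR adjusted p = 0.0316) lower and Cd160 (0.77, edgeR adjusted p = 0.0294) and Entpd1 (0.96, edgeR adjusted p = 0.023) higher. That fit raised the median of all genes by 0.86 on the log2 scale, and it called 3746 genes higher and 22 lower. The part of the lower T cell marker sum in the results on the scale of the whole library was not tested further.

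**Figure D3:**
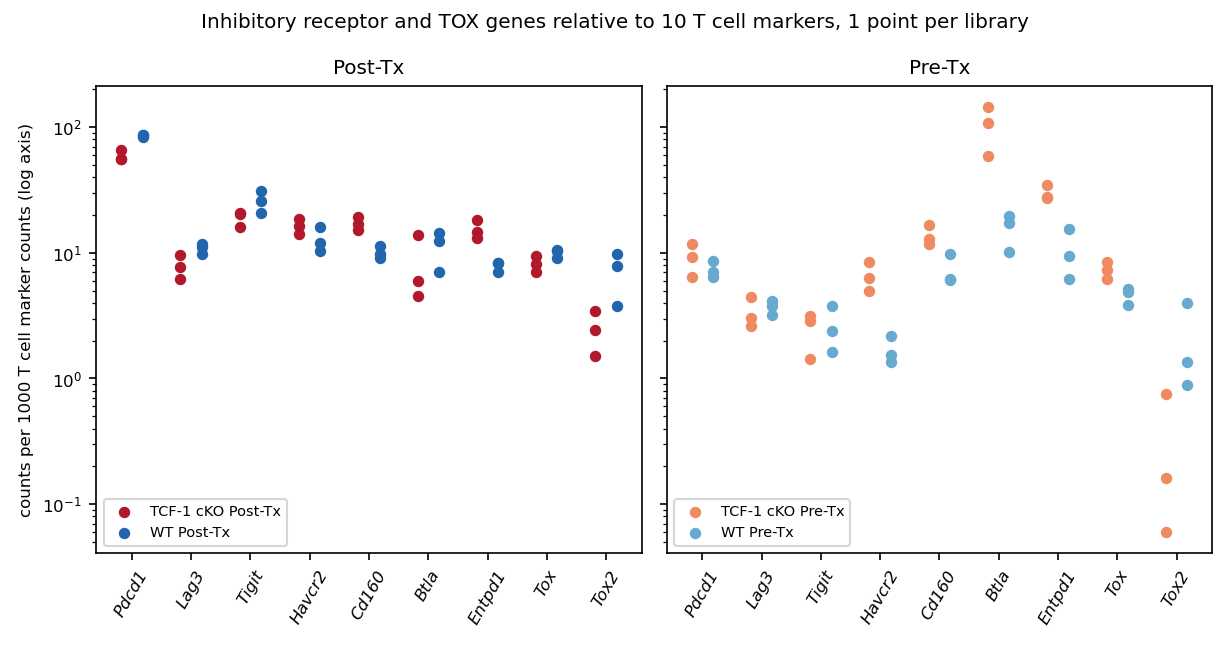
Counts of each gene per 1000 summed counts of 10 T cell markers (log vertical axis), 1 point per library, with TCF-1 cKO left of WT for each gene, in Post-Tx (left panel) and Pre-Tx (right panel). Pdcd1 lies at 56.2 to 65.6 in TCF-1 cKO Post-Tx and 82.7 to 86.6 in WT Post-Tx, and Btla at 58.8 to 144 in TCF-1 cKO Pre-Tx and 10.2 to 19.7 in WT Pre-Tx.

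Genes around these receptors were read from the same comparison of TCF-1 cKO with WT after transplant. Of 13 other inhibitory receptors, 3 were lower and 1 was higher, beside 3.13% lower and 3.52% higher of all genes tested. The same shares apply to the lists that follow. Ctla4, the competitor of CD28 for B7 ligands, had a log2 fold change of -1.24 (edgeR adjusted p = 0.0208), Vsir, which encodes VISTA, of -0.97 (edgeR adjusted p = 0.0282), and Cd5, a brake on T cell receptor signals, of -0.83 (edgeR adjusted p = 0.046). Cd244a, a receptor of the SLAM family, was higher at 1.16 (edgeR adjusted p = 0.0448). Of 6 genes listed as activating counterparts, 4 were lower: Cd200 (-1.52), Icos (-1.12), Cd28 (-0.95) and Cd4 (-0.90), with edgeR adjusted p from 0.0208 to 0.0354. Cd200 does not encode an activating receptor but the ligand of the inhibitory receptor of Cd200r1. Lower calls were therefore not limited to inhibitory receptors.
Of 10 cytosolic attenuators of receptor signals, 3 were lower, namely Ubash3b (-1.44, edgeR adjusted p = 0.0183), Cblb (-0.85, edgeR adjusted p = 0.0465) and Ptpn6, which encodes SHP-1 (-0.82, edgeR adjusted p = 0.0385), and 0 were higher. Of 16 transcription factors linked to the receptors in exhausted and helper T cells, 3 were lower and 0 higher. These were Id3 (-1.82, edgeR adjusted p = 0.011), Nfatc1, which acts on the Pdcd1 gene (-1.25, edgeR adjusted p = 0.0154), and Batf (-0.98, edgeR adjusted p = 0.0261). Of 11 ligand genes and 5 genes of the adenosine pathway, 0 were called in either direction. Lgals3 (-0.67, edgeR adjusted p = 0.0634) and Adora2a (-0.65, edgeR adjusted p = 0.0797) had the smallest adjusted p of those 2 lists. Median log2 fold changes were -0.66 for the other inhibitory receptors, -0.99 for the activating counterparts, -0.73 for the attenuators, -0.68 for the factors, -0.20 for the ligands and -0.45 for the adenosine pathway, beside 0.09 for all genes.
Markers of T cell subsets moved in the same libraries. The 5 markers of regulatory T cells, which carry CD39, TIGIT and CTLA-4, summed to 502.5 to 601 CPM in TCF-1 cKO Post-Tx against 656 to 897 CPM in WT Post-Tx. Foxp3, their defining factor, did not follow that sum, with 32.8, 15.8 and 20.2 CPM in TCF-1 cKO Post-Tx against 18.3, 26.3 and 11.7 CPM in WT Post-Tx, and the groups overlapped. The 6 markers of follicular helper cells summed to 322 to 490 CPM in TCF-1 cKO Post-Tx against 524 to 799 CPM in WT Post-Tx. Among them are Icos and Cd200, already named as lower. Bcl6 (-1.09, edgeR adjusted p = 0.092) and Sh2d1a (-0.61, edgeR adjusted p = 0.0934), also among them, were not called. Cd4 itself stood at 709 to 856 CPM in TCF-1 cKO Post-Tx against 1095 to 1164 CPM in WT Post-Tx. The CD8 genes Cd8a and Cd8b1 went the other way, with sums of 55.9 to 57.6 CPM in TCF-1 cKO Post-Tx against 20.5 to 42.3 CPM in WT Post-Tx. The part of these subsets in the lower receptor transcripts was not tested.

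Before transplant the question was whether the genes already differed in donor cells. Here 1 of the 9 genes was higher in TCF-1 cKO than in WT, Btla, and 1 was lower, Tox2, against 8.52% higher and 5.65% lower of the 17021 genes tested. Normalized CPM of Btla were 251, 197 and 128 in TCF-1 cKO Pre-Tx against 62.0, 69.2 and 33.3 in WT Pre-Tx. All TCF-1 cKO libraries were above all WT libraries, with a log2 fold change of 1.81 (SE 0.33, edgeR adjusted p = 0.0109). Without WT Pre-Tx replicate 1 the adjusted p was 0.0704. B cells express Btla too, and the B cell marker sum was 9234 to 9927 CPM in TCF-1 cKO Pre-Tx against 7724 to 8860 CPM in WT Pre-Tx. Its markers did not all follow the sum. Cd79a went the other way, with 2055, 2173 and 2172 CPM in TCF-1 cKO Pre-Tx against 2419, 2563 and 2502 CPM in WT Pre-Tx. Cd22 followed it, with 881 to 1052 normalized CPM in TCF-1 cKO Pre-Tx against 571 to 788 in WT Pre-Tx. All 10 B cell markers were detected in both groups, and their part in the result was not tested.
Tox2 was near the limit of detection before transplant in TCF-1 cKO, with 2, 7 and 33 counts, against 203, 61 and 72 counts in WT. That is 0.105, 0.297 and 1.63 normalized CPM in TCF-1 cKO Pre-Tx against 12.5, 3.57 and 4.44 in WT Pre-Tx. The log2 fold change was -3.41 (SE 1.02, edgeR adjusted p = 0.0458). This call was lost without each of 5 of the 6 libraries in turn, at adjusted p from 0.0623 to 0.186, and with the replicate number as a block (0.0667).
The other genes did not pass the test in the fit of the 6 Pre-Tx libraries. In the model of all 12 libraries, Lag3 (-0.98, edgeR adjusted p = 0.0317) and Tigit (-0.89, edgeR adjusted p = 0.0417) were called lower and Havcr2 (1.15, edgeR adjusted p = 0.0197) higher. In the Pre-Tx fit, Lag3 had 5.29, 8.23 and 5.74 normalized CPM in TCF-1 cKO Pre-Tx against 12.9, 12.8 and 12.3 in WT Pre-Tx (log2 fold change -1.02, edgeR adjusted p = 0.161), and Havcr2 had 11.1, 9.20 and 18.5 against 4.24, 6.15 and 7.09 (1.07, edgeR adjusted p = 0.172). In both, the groups did not overlap. Pdcd1 (-0.58), Tigit (-0.91), Tox (-0.24), Cd160 (0.01) and Entpd1 (0.68) had edgeR adjusted p from 0.144 to 0.992. In normalized CPM, groups did not overlap for 7 of the 9 genes, with 3 above and 4 below WT, beside 20.4% higher and 20.5% lower of all genes. In TPM the groups of Pdcd1 and Entpd1, which are among those 7, overlapped.
Set against the T cell markers, more of these genes were above WT before transplant, and so were more of all genes. Btla had 144, 107 and 58.8 counts per 1000 T cell marker counts in TCF-1 cKO Pre-Tx against 19.7, 17.3 and 10.2 in WT Pre-Tx, a log2 difference of 2.67. Differences of 1.96 for Havcr2, 1.62 for Entpd1, 0.93 for Cd160 and 0.67 for Tox also came without overlap, and so did -2.99 for Tox2, each at the smallest exact permutation p of 0.1. The fit of all genes scaled to the T cell markers called Btla (2.71, edgeR adjusted p = 0.000217), Havcr2 (1.97, edgeR adjusted p = 0.0123) and Entpd1 (1.53, edgeR adjusted p = 0.00515) higher, and Tox2 did not pass (-2.66, edgeR adjusted p = 0.0657). That fit raised the median of all genes by 0.89 on the log2 scale, and it called 6205 of 17021 genes higher and 339 lower. Higher calls beside such a share are not a result about the members. Pdcd1 (0.28), Lag3 (-0.16) and Tigit (-0.04) overlapped, with exact permutation p from 0.4 to 1.0. Because B cell transcripts were abundant in these libraries, a count per T cell marker need not stem from T cells.
The lists around the receptors gave fewer lower calls before transplant, when 8.52% of all 17021 genes tested were called higher and 5.65% lower. Single calls in lists this short are not a result about the list. Of the 13 other inhibitory receptors, Cd5 was lower (-1.23, edgeR adjusted p = 0.0126) and 0 were higher, and of the 6 activating counterparts 0 were called. Of the 11 ligands, 2 were higher, Cd274, which encodes PD-L1 (1.59, edgeR adjusted p = 0.0356), and Ceacam1, a ligand of TIM-3 (1.49, edgeR adjusted p = 0.0164), and Nectin3 was lower (-2.30, edgeR adjusted p = 0.0451). In the adenosine pathway, Nt5e, the enzyme that completes the work of CD39 (1.92, edgeR adjusted p = 0.0389), and Dpp4 (1.54, edgeR adjusted p = 0.0196) were higher, 2 of 5. Of the 10 attenuators Ptpn22 was higher (1.47, edgeR adjusted p = 0.0161), and of 15 factors tested 3 were higher, namely Irf4 (1.52, edgeR adjusted p = 0.0126), Bcl6 (1.07, edgeR adjusted p = 0.029) and Nfatc1 (0.88, edgeR adjusted p = 0.0379). B cells also express several of these genes, among them Cd274, Irf4 and Bcl6, and the part of B cells was not tested.

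Whether the genotype difference itself changed with transplant was tested with the interaction in a model of all 12 libraries. Of the 9 genes, 2 were called, both lower, against 11.5% lower and 17.1% higher of the 21434 genes tested. Btla had an interaction of -3.13 on the log2 scale (SE 0.56, edgeR adjusted p = 0.00268), since it was higher in TCF-1 cKO before transplant and lower in TCF-1 cKO after it. Havcr2 had an interaction of -1.65 (SE 0.42, edgeR adjusted p = 0.0118), beside genotype differences of -0.50 after and 1.07 before transplant in the fits of 6 libraries, neither of which passed the test there. In the model of all 12 libraries the difference before transplant was 1.15 (edgeR adjusted p = 0.0197). The Havcr2 call was lost with upper-quartile normalization (-0.95, edgeR adjusted p = 0.0957) and with genes under a mean CPM of 10 left out (-1.03, edgeR adjusted p = 0.0954). Pdcd1 (-0.89, edgeR adjusted p = 0.0523) and Tox (-1.01, edgeR adjusted p = 0.0755) were close to the threshold. For Lag3 (-0.38), Tigit (-0.42), Cd160 (-0.18), Entpd1 (-0.64) and Tox2 (0.94), edgeR adjusted p ranged from 0.231 to 0.743. For these 7 genes a difference between the stages in the genotype effect was not shown.

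From Pre-Tx to Post-Tx most of the genes were higher in both genotypes. In TCF-1 cKO, 7 of the 9 genes were higher and 1 was lower in Post-Tx, against 14.2% and 12.5% of all genes tested. In WT, 8 of the 9 were higher and 0 lower, against 11.6% and 10.4%. The largest changes were those of Pdcd1 and Tigit in WT and those of Tigit and Tox2 in TCF-1 cKO. Pdcd1 averaged 269 ± 11.7 in normalized CPM for TCF-1 cKO Post-Tx and 17.4 ± 4.91 for TCF-1 cKO Pre-Tx (SD, n = 3 each), a log2 fold change of 3.95 (SE 0.26, edgeR adjusted p = 1.6e-08). In WT it averaged 719 ± 141 in Post-Tx and 25.2 ± 1.87 in Pre-Tx (SD, n = 3 each), a log2 fold change of 4.83 (SE 0.27, edgeR adjusted p = 2.41e-09).
Tigit had log2 fold changes of 4.19 in TCF-1 cKO (edgeR adjusted p = 6.18e-08) and 4.61 in WT (edgeR adjusted p = 2.27e-08). Tox2 had 4.02 in TCF-1 cKO (edgeR adjusted p = 0.000924), where its Pre-Tx counts were near the limit, and 3.08 in WT (edgeR adjusted p = 0.00334). Havcr2 had 2.52 in TCF-1 cKO (edgeR adjusted p = 1.88e-05) and 4.17 in WT (edgeR adjusted p = 1.36e-07), the pair of values behind its interaction. Lag3 (2.46 in TCF-1 cKO and 2.85 in WT), Cd160 (1.55 and 1.73) and Tox (1.38 and 2.39) were higher in both as well. The groups contrasted in the 2 comparisons with Pre-Tx share no library. Both comparisons came from the model of all 12 libraries, so they share its estimate of spread.
Btla and Entpd1 stood apart. Btla averaged 37.0 ± 22.9 in normalized CPM for TCF-1 cKO Post-Tx and 192 ± 61.6 for TCF-1 cKO Pre-Tx (SD, n = 3 each), a log2 fold change of -2.38 (SE 0.41, edgeR adjusted p = 0.000527). In WT it was 0.75 (edgeR adjusted p = 0.175), with overlapping groups. B cells express Btla too, and the B cell marker sum was far lower in Post-Tx. It was 53.9 to 109 CPM in TCF-1 cKO Post-Tx against 9234 to 9927 CPM in TCF-1 cKO Pre-Tx. In WT it was 42.0 to 83.5 CPM in Post-Tx against 7724 to 8860 CPM in Pre-Tx. The part of B cells in the change of Btla with transplant was not tested. Entpd1 had 0.30 in TCF-1 cKO (edgeR adjusted p = 0.437) and 0.93 in WT (edgeR adjusted p = 0.0286), and the WT call was lost without WT Post-Tx replicate 1 (0.071) or WT Post-Tx replicate 3 (0.118).
The T cell marker sum moved with transplant too, at 5530 to 5848 CPM in TCF-1 cKO Post-Tx against 1660 to 1853 CPM in TCF-1 cKO Pre-Tx. It was 7166 to 8829 CPM in WT Post-Tx against 2962 to 3475 CPM in WT Pre-Tx. With libraries scaled to these markers, Pdcd1 remained higher in Post-Tx at 2.71 in TCF-1 cKO and 3.54 in WT, Tigit at 2.92 and 3.32, Havcr2 at 1.31 and 2.92, and Lag3 at 1.22 and 1.56, all called. Tox was called in WT (1.12, edgeR adjusted p = 0.00757) but not in TCF-1 cKO (0.16, edgeR adjusted p = 0.692), and Tox2 in TCF-1 cKO (2.90, edgeR adjusted p = 0.00724) but not in WT (1.79, edgeR adjusted p = 0.057). Cd160 was called in neither (0.31 and 0.45). Entpd1 was lower in TCF-1 cKO on this scale (-0.96, edgeR adjusted p = 0.0149), with -0.39 in WT (edgeR adjusted p = 0.272), so its direction with transplant depended on the scale. Of all 21434 genes tested on this scale, 548 were called higher and 8508 lower in TCF-1 cKO, and 468 higher and 9778 lower in WT. The median log2 fold change of all genes was -0.88 in TCF-1 cKO and -1.66 in WT, so Entpd1 in TCF-1 cKO lay near the median gene.

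**Figure D4:**
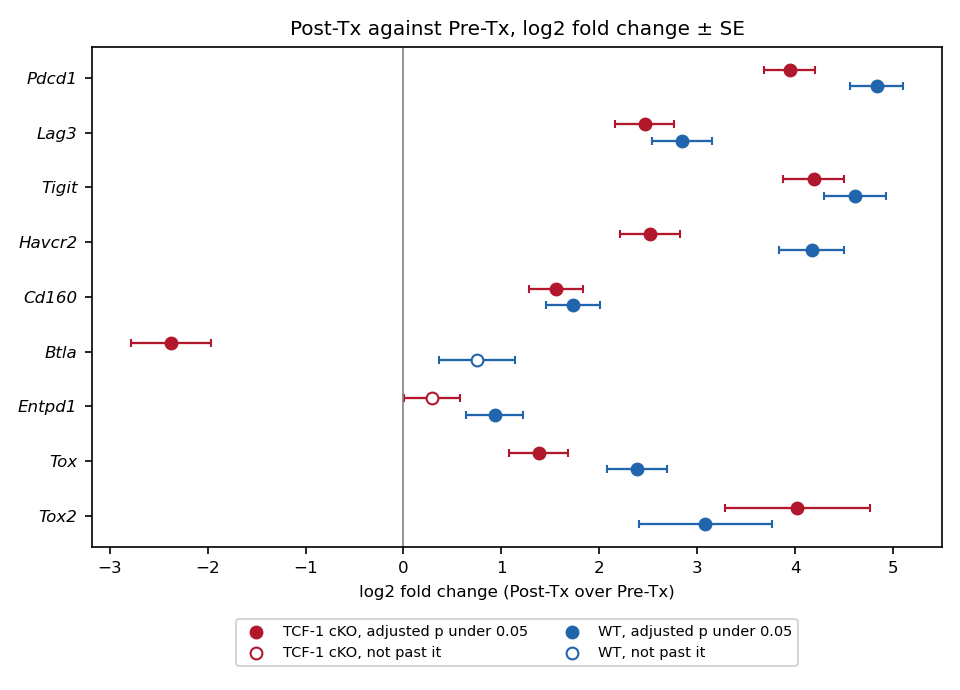
Log2 fold change of Post-Tx over Pre-Tx (horizontal axis, with bars of 1 SE) of the 9 genes in TCF-1 cKO (red, upper of each pair) and WT (blue, lower of each pair), with filled points for an adjusted p under 0.05. Pdcd1 and Tigit lie between 3.95 and 4.83 in both genotypes, and Btla lies at -2.38 in TCF-1 cKO and 0.75 in WT.

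Levels of different genes were compared only in TPM, which is scaled for transcript length. In TCF-1 cKO Post-Tx, mean TPM was 211 for Pdcd1, 173 for Tigit, 114 for Cd160, 53.9 for Entpd1, 39.5 for Havcr2, 29.4 for Lag3, 19.2 for Btla, 14.7 for Tox and 6.66 for Tox2. Neighbours in this order overlapped between Havcr2 and Lag3, Lag3 and Btla, and Btla and Tox. In WT Post-Tx, mean TPM was 446 for Pdcd1, 339 for Tigit, 98.7 for Cd160, 55.5 for Lag3, 44.6 for Havcr2, 36.7 for Entpd1, 36.0 for Btla, 27.5 for Tox2 and 25.1 for Tox. From Entpd1 downward each neighbour overlapped with the next. Pdcd1 and Tigit thus led after transplant in both genotypes.
Before transplant other genes led. In TCF-1 cKO Pre-Tx, Btla stood at 66.1 TPM, above Entpd1 at 27.8 and Cd160 at 26.3, which overlapped, and Tox2 was lowest at 0.331. In WT Pre-Tx, Cd160 at 21.6 TPM, Entpd1 at 19.1 and Btla at 17.4 came first, each overlapping with the next. Pdcd1 was at 9.47 TPM in TCF-1 cKO Pre-Tx against 11.9 TPM in WT Pre-Tx, with overlap. Tox was likewise at 3.71 TPM in TCF-1 cKO Pre-Tx against 3.96 TPM in WT Pre-Tx, with overlap.

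After transplant the counts came mainly from 1 transcript of each gene. Pdcd1 (chromosome 1, 94038305 to 94052553, minus strand) and Tigit (chromosome 16, 43648867 to 43664146, minus strand) each had 1 annotated transcript in GENCODE M21 on GRCm38. Tox-201 held 88.3% of Tox counts in TCF-1 cKO Post-Tx and 96.6% in WT Post-Tx, and most of the rest fell to the noncoding transcripts Tox-203 and Tox-204. Tox2-202 held 77.3% in TCF-1 cKO Post-Tx and 75.1% in WT Post-Tx, and Tox2-205 held 22.4% and 24.8%. In WT Pre-Tx, Tox2-202 held 57.0% and Tox2-205 held 42.5%. Havcr2-201 held 97.6% in TCF-1 cKO Post-Tx and 100% in WT Post-Tx, but in Pre-Tx, where counts were low, its share ran from 5.96% to 94.1% among TCF-1 cKO libraries and from 11.3% to 93.0% among WT libraries. Btla-202 held 88.2% in TCF-1 cKO Post-Tx and 92.2% in WT Post-Tx. The deposited tables give no error of these estimates.

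The genes whose pattern over the 12 libraries was most like that of each member were found by the root mean square difference of centred log2 normalized CPM, among 9070 genes. Pdcd1 and Tigit were nearest to each other, at 0.41, followed for Pdcd1 by Podnl1 (0.45) and Ifitm1 (0.50) and for Tigit by Epas1 (0.54) and Tnfrsf4 (0.56). Lag3 was nearest to Sh2d1a (0.41), Lgals1 (0.43) and Tnfrsf9 (0.43). Havcr2 was nearest to Ckap2l (0.29), Bhlhe40 (0.30) and the cell cycle kinase gene Cdk1 (0.33), and Cd160 to Dut (0.23), Dynll2 (0.24) and Cenpa (0.26). Tox was nearest to Nkg7 (0.23), the T cell receptor complex gene Cd3g (0.25) and Lpcat4 (0.26). Btla was nearest to Rpap3 (0.35), Zfp472 (0.39) and Fbxl5 (0.40), and Entpd1 to Pcnt (0.19), Lyar (0.20) and Cdc14a (0.22). Tox2 had no close neighbour, with Gpnmb (0.89), Slc35f2 (1.22) and Sostdc1 (1.26) first. The 12 libraries share their 4 groups and their depth, so likeness is a description only.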

How the data were processed

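RNA of 12 libraries was amplified with the SMARTseq HT kit, built into libraries with Nextera XT and sequenced as paired ends. The authors ran pseudoalignment with kallisto 0.46.2 against a transcript set not given in the sources used here, and the labels name mm9. The deposited estimated counts are read pairs per transcript with no normalization, and the deposited TPM values are those that kallisto scaled for transcript length and library total. The authors then used limma, whose output was not used here.

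Of 117497 transcripts, 116428 (99.1%) were assigned to GENCODE M21 genes (GRCm38) by unversioned identifier. The others, 0.282% to 0.386% of counts, were left out. Estimated counts were summed per gene and rounded. edgeR 4.0.16 in R 4.3.3 gave TMM normalization, the filter on low counts and the quasi-likelihood test, with Benjamini-Hochberg adjustment over all genes tested and a threshold of 0.05. Genotypes were compared within the 6 libraries of a stage, and the interaction and Post-Tx against Pre-Tx in all 12. P-values measure the spread between these libraries. The standard error is the log2 fold change over the square root of F, and intervals span 1.96 of it. Counts per T cell marker, with 0.5 added before the logarithm, were compared by exact permutation with numpy 2.4.6. Alternatives used DESeq2 1.42.0, limma 3.58.1 with voom or log2(TPM + 1), other scalings and filters, the replicate block and each library left out. Scripts were tested on simulated counts. Pearson's correlation of log2 CPM (prior count 2) between replicates was 0.869 to 0.955 and the chi-square per gene 36.8 to 111, so no library was a copy. Figures were drawn with matplotlib 3.10.9 in Python 3.11.15, with numpy 2.4.6 and pandas 2.3.3 for tables.

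The members, lists, motifs and tests were chosen with earlier results of these data known. Named are the 9 members, up to 4 genes of each list with the smallest adjusted p in the Post-Tx genotype comparison, members of counts of 5 or fewer in it, and the 3 genes most like each member. Likeness was sought above a mean CPM of 10, passing over predicted genes and pseudogenes. Protein sequences were not analysed here.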

Additional observations from a re-analysis of the deposited data

Results flagged for a closer look

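The genotype difference of Btla, the HVEM receptor, differed between the stages, by the interaction test in all 12 libraries. The interaction was -3.13 on the log2 scale (SE 0.56, edgeR adjusted p = 0.00268), and in 20 of 20 alternatives it stayed past the threshold, with values from -3.77 to -2.48. In normalized CPM Btla was lower in all 3 TCF-1 cKO Post-Tx libraries than in any WT Post-Tx library, whereas in TPM these groups overlapped, and on both scales it was higher in all 3 TCF-1 cKO Pre-Tx libraries than in any WT Pre-Tx library. The B cell marker sum was 53.9 to 109 CPM in TCF-1 cKO Post-Tx against 42.0 to 83.5 CPM in WT Post-Tx. It was 9234 to 9927 CPM in TCF-1 cKO Pre-Tx against 7724 to 8860 CPM in WT Pre-Tx, where its marker Cd79a went the other way. The part of B cells in the result was not tested.

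The genotype difference of Havcr2, which encodes TIM-3, also differed between the stages by the same test. Its interaction was -1.65 on the log2 scale (SE 0.42, edgeR adjusted p = 0.0118). It stayed past the threshold in 18 of 20 alternatives. The sum of the 8 macrophage and monocyte markers, cells that also express Havcr2, was 1310 to 1675 CPM in TCF-1 cKO Post-Tx against 782 to 1065 CPM in WT Post-Tx, and 2825 to 3021 CPM in TCF-1 cKO Pre-Tx against 2570 to 3627 CPM in WT Pre-Tx. The sum of the 7 NK cell markers, cells that can express Havcr2 too, had the same order as Havcr2 at both stages, with 190.3 to 258 CPM in TCF-1 cKO Post-Tx against 303 to 458 CPM in WT Post-Tx, and 541 to 617 CPM in TCF-1 cKO Pre-Tx against 189 to 273 CPM in WT Pre-Tx. All 7 were detected except Klra8, which was at 0 in WT Post-Tx. Gzma and Prf1 are among the 7, and T cells can express them too, so the sum need not stem from NK cells. The part of either cell type in the result was not tested.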

How the results depend on the processing

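The 9 members gave 45 values over the 5 comparisons, and their 824 values under alternatives kept direction and side of the threshold in 742, passed it no longer in 41, passed it newly in 17 and changed sign in 24. The causes were not tested.

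For TCF-1 cKO against WT in Post-Tx, 1283 genes were called, against 3785 with DESeq2, 2850 with limma voom, 2205 with no filter, 798 with upper-quartile normalization (687 higher and 111 lower), 583 at a mean CPM of at least 10 (506 higher and 77 lower), 3768 scaled to T cell markers (3746 higher and 22 lower) and 137 with all 12 libraries in one model. The reported fit called 679 higher and 604 lower. With single libraries left out the count ran from 6 to 3209. Of the members, 6 were lower, against 2 scaled to T cell markers, 3 in the model of all 12 libraries and 0 to 6 with single libraries left out, and 0 were higher, against 2 scaled to T cell markers. Btla and Tox also lost their calls with limma on log2(TPM + 1) and at a mean CPM of at least 10, and Btla with upper-quartile normalization. For Pre-Tx, 2413 genes were called, against 4066 with DESeq2, 6544 scaled to T cell markers (6205 higher and 339 lower), 3665 in the model of all 12 libraries, and 14 to 2611 with single libraries left out. There 1 member was higher, against 3 scaled to T cell markers, 2 in the model of all 12 libraries and 0 to 1 with libraries left out. In the same comparison 1 was lower, against 3 in the model of all 12 libraries, 0 scaled to T cell markers, 0 at a mean CPM of at least 10, where Tox2 was not tested, and 0 to 1 with libraries left out. For the interaction, 6134 genes were called, against 1370 at a mean CPM of at least 10 and 3013 to 7297 with libraries left out. Of the members 2 were lower, against 4 with DESeq2, 1 with upper-quartile normalization, 1 at a mean CPM of at least 10 and 2 to 4 with libraries left out, and 0 were higher, against 0 to 1 with libraries left out. Post-Tx against Pre-Tx called 5713 genes in TCF-1 cKO, against 9056 scaled to T cell markers (548 higher and 8508 lower), 3163 at a mean CPM of at least 10 and 2775 to 6197 with libraries left out, and 4706 in WT, against 10246 scaled to T cell markers (468 higher and 9778 lower) and 2761 to 5154 with libraries left out. In TCF-1 cKO 1 member was lower, against 2 scaled to T cell markers. In WT 8 members were higher, against 5 scaled to T cell markers and 7 to 8 with libraries left out. Alternatives whose counts differed little from the reported ones are not all listed here.

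Upper-quartile normalization shifted the median gene by 0.28 on the log2 scale in Post-Tx and -0.36 in Pre-Tx, and T cell scaling by 0.86 and 0.89. With transplant, T cell scaling shifted it by -1.24 in TCF-1 cKO and by -1.25 in WT. Values that changed sign follow. In Post-Tx, Cd160 was 0.21 with log2(TPM + 1), 0.18 with upper-quartile normalization, 0.30 at a mean CPM of at least 10 and 0.77 scaled to T cell markers, Havcr2 was 0.36 scaled to T cell markers, and Entpd1 was -0.18 without TCF-1 cKO Post-Tx replicate 1 and -0.03 without WT Post-Tx replicate 2. In Pre-Tx, Cd160 was -0.35 with upper-quartile normalization, -0.26 at a mean CPM of at least 10, -0.09 without TCF-1 cKO Pre-Tx replicate 2 and -0.13 without WT Pre-Tx replicate 1, and Pdcd1 was 0.31 and Tox 0.67 scaled to T cell markers. For the interaction, Tox2 was -0.45 with log2(TPM + 1), and with upper-quartile normalization Lag3 was 0.29, Tigit 0.25, Cd160 0.52 and Entpd1 0.045. At a mean CPM of at least 10, Lag3 was 0.22, Tigit 0.19 and Cd160 0.43. With transplant and T cell scaling, Entpd1 was -0.96 in TCF-1 cKO. In WT it was -0.39, and Btla was -0.48. Per Cd3e count in Pre-Tx, Lag3 was 0.21 and Tigit 0.33, and without TCF-1 cKO Pre-Tx replicate 3 they were 0.0071 and 0.31 per T cell marker count, and Tigit was 0.27 without WT Pre-Tx replicate 1. With single libraries left out, these values ran from -0.38 to 0.0071 for Lag3 and from -0.34 to 0.31 for Tigit.

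With the replicate number as a block, 3257 genes were called in Post-Tx and 0 members were lower in Pre-Tx (Tox2, edgeR adjusted p = 0.0667). Correlations of residuals between libraries of the same number were -0.175 to 0.248, and in 8 of 24 cases a library correlated best with its own number in the other group, so the libraries were not treated as paired.

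Depth limits Tox2 in TCF-1 cKO Pre-Tx, with 2, 7 and 33 counts, and the transcript shares of Havcr2 in Pre-Tx.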
